A study of Mus musculus with 14 samples.

Results

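Voltage-gated and potassium ion channels set the resting potential, the action potential and the pacing of excitable cells, and 125 genes for their subunits were followed here through cardiac reprogramming of mouse fibroblasts. The genes were chosen by name alone, as features with 1 gene symbol that begins with Kcn, Cacn, Scn or Hcn and ends in the numbering of a channel subunit. They were 125 of the 22206 features measured, 1 feature per gene, and each had a value on every array. By role they fell into 10 families. There were 36 voltage-gated potassium channel alpha subunits, 15 inward rectifiers, 14 K2P background channels, 11 potassium channel auxiliary subunits and 11 subunits of calcium- or sodium-activated potassium channels. Calcium channels gave 10 pore and 15 auxiliary subunits, sodium channels 7 pore and 3 beta subunits, and the pacemaker channels 3 HCN genes.

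All cells were mouse embryonic fibroblasts (MEFs) that carried retroviral Gata4, Hand2, Mef2c and Tbx5 (GHMT), factors that turn some fibroblasts into induced cardiomyocytes, and were collected 2 weeks after transduction. The 7 groups, each of 2 arrays from independent biological samples, differed in matrix and added virus. Cells with GHMT and nothing further grew on Matrigel-based hydrogels of 126 kPa (GHMT/126 kPa) or of 8 kPa (GHMT/8 kPa). On 126 kPa, lentivirus added 1 of Scramble shRNA, shYAP and shTAZ, and on 8 kPa, retrovirus added YAP-5SA or TAZ-4SA. YAP and TAZ are transcriptional co-activators that respond to matrix stiffness, shYAP and shTAZ are directed against them, and YAP-5SA and TAZ-4SA are constitutively active mutants. Each sample was the RNA of a whole culture, reprogrammed and unreprogrammed cells together, and all groups carried GHMT, so there was no group of untreated fibroblasts. In such RNA, fewer cells of a type and less RNA per cell cannot be told apart.

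In a cardiomyocyte, sodium channels start the action potential, L-type calcium channels such as Cacna1c carry the calcium that triggers contraction, and voltage-gated potassium channels repolarise the membrane. Inward rectifiers such as Kcnj2 hold the resting potential, the transient outward channel of Kcnd2 shapes early repolarisation, and HCN channels, above all Hcn4, carry the pacemaker current of the sinoatrial node. Auxiliary subunits do not form the pore but control how much channel reaches the membrane and how it gates. Fibroblasts are not excitable, yet they hold potassium channels that set their membrane potential and calcium entry.

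Every value is a log ratio made by the authors within 1 of 3 sets of arrays. The base of the logarithm is not stated and was taken as 2, the base in which the array software works, and every fold below rests on it. The stiffness set has the average of the GHMT/126 kPa arrays as its reference, the shRNA set that of the Scramble shRNA arrays, so the 2 arrays of those groups mirror each other around 0. The reference of the mutant set is not stated. A ratio carries no signal level, so whether a channel was above background, and whether the cells held the defining markers of their labels, could not be read from these values. A difference is the mean of 1 group minus the mean of the other (n = 2 arrays per group), with its standard error (SE) from limma, and a gene passed when its p, adjusted by Benjamini-Hochberg across every feature of the set, was under 0.05. Where the arrays of 2 groups are said not to overlap, this only describes 2 values against 2. No share of all features is given for it unless a 2-fold difference was also required.

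The targeted genes and the arrays were checked first. Yap1, which encodes YAP, had log2 ratios of -0.89 and -0.88 with shYAP against -0.11 and 0.11 with scramble (adjusted p = 0.0498 from limma). Wwtr1, which encodes TAZ, had -0.36 and -0.31 with shTAZ against -0.25 and 0.25 with scramble (adjusted p = 0.43 from limma), so its depletion was not resolved from the spread of the scramble arrays. Yap1 was at 0.24 and 0.057 with YAP-5SA and Wwtr1 at 0.11 and 0.080 with TAZ-4SA, relative to the unstated reference. The 2 scramble arrays stood apart from each other. All 17 macrophage markers measured were higher on scramble replicate 1 than on replicate 2, by a median of 2.29, and their median ratio was -2.24 and -3.55 with shYAP and -4.68 and -4.67 with shTAZ. The same 17 markers were all lower on 8 kPa, at medians of -1.35 and -1.50, and in the mutant set their median ran from -2.50 to -0.99. Between the scramble arrays 5 of the 125 channel genes differed at least 2-fold (2.58% of all features did), namely Kcnj10, Kcnj2, Kcnk6, Cacna1d and Cacna1a, all higher on replicate 1.

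**Figure D1:**
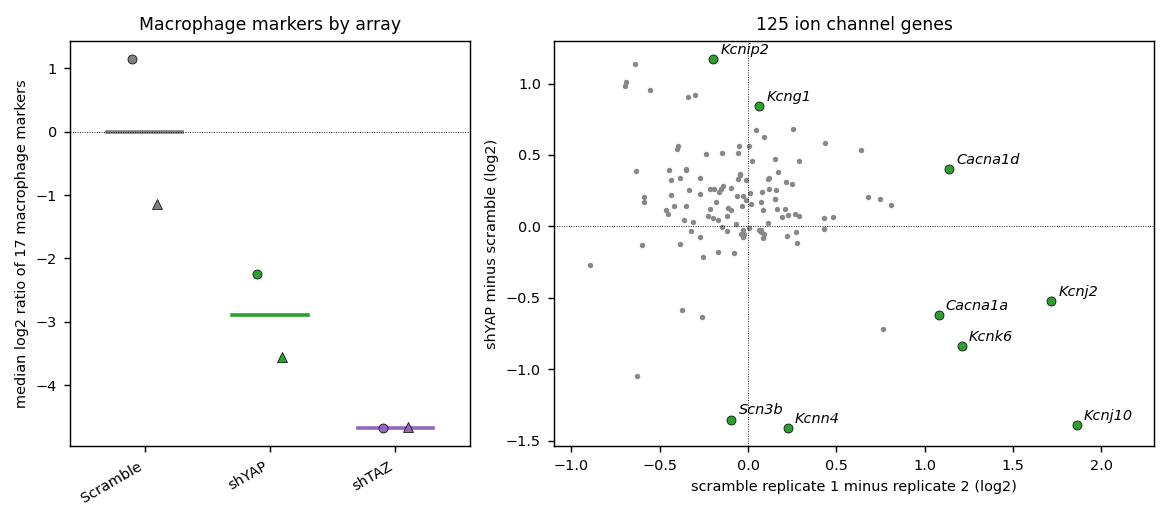
Left, median log2 ratio of 17 macrophage markers on each array of the shRNA set (circle, replicate 1; triangle, replicate 2; bar, group mean). Right, for each of the 125 ion channel genes, the log2 difference between the 2 scramble arrays (x axis) and that between shYAP and scramble (y axis). Kcnj10, Kcnj2, Kcnk6, Cacna1d and Cacna1a lie beyond 1 on the x axis, whereas Kcnn4, Scn3b, Kcng1 and Kcnip2 lie near 0 there.

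Promoter sequences were available for 95 of the 125 genes, in 130 entries. Printed are 3 holding a motif, from Hcn4 and Cacna1c of the cardiac channels and Kcnn4, the channel gene lowest with both shRNAs. Each runs from 250 bases before to 50 bases after the start of a RefSeq transcript (GRCm38.p6), written 5′ to 3′ on the strand of the gene. Capitals mark the letters of 3 short motifs searched on both strands: GGAATG, bound by TEAD factors that partner YAP and TAZ, AGATAA, bound by GATA factors, and AGGTGT, bound by T-box factors such as Tbx5.
Hcn4, chr9:58822699-58822998, plus strand: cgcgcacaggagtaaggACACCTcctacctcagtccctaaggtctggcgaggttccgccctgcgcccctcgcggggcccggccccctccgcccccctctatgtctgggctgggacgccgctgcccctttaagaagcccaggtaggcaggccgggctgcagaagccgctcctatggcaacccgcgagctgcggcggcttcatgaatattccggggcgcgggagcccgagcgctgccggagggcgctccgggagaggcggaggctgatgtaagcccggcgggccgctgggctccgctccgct
Cacna1c, chr6:119108446-119108745, minus strand: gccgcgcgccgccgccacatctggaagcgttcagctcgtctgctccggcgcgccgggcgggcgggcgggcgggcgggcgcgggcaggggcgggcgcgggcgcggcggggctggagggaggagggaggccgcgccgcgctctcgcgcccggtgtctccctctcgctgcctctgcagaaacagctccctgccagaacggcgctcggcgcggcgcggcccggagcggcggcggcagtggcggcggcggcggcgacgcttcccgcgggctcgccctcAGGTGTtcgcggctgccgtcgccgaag
Kcnn4, chr7:24370013-24370312, plus strand: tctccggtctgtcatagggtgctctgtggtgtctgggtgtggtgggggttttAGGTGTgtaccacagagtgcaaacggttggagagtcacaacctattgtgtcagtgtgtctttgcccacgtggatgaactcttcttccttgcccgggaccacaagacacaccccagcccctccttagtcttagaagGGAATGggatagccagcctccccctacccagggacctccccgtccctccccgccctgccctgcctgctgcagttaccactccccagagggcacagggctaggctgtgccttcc

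The Kcnn4 promoter held GGAATG beginning 63 bases before the start and AGGTGT beginning 198 bases before it. Hcn4 held the reverse complement of AGGTGT beginning 233 bases before the start, and Cacna1c held AGGTGT from 23 bases after the first base of the transcript in 1 of its 3 entries. None of the 3 motifs overlaps another in these entries. The entries of Kcnd2 and Kcnj2, also cardiac channels, held none of the 3 motifs and are not printed. Over the 130 entries, GGAATG was in 23 (17.7%, against 14.7% of 32851 promoters of this length), AGGTGT in 19 (14.6%, against 13.7%) and AGATAA in 5 (3.85%, against 11.2%). These are matches of letters only, as no binding was measured.

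The first comparison asked whether channel genes differed with the stiffness of the matrix. On 8 kPa, 72 of the 125 were higher and 53 lower than on 126 kPa, with a median difference of 0.067 against 0.034 over all features. By limma 0 of the 125 passed, in a comparison where 0% of all features passed as higher and 0.0721% as lower. At an unadjusted p under 0.05, 9 channel genes were higher (5.95% of all features were) and 10 lower (4.69% of all features), which is 7.2% and 8% of the 125. A fit to all 14 arrays passed 4, namely Kcnb2, Kcnip1 and Cacnb1 as higher (0.759% of all features in that fit) and Cacna1g as lower (0.787%), and the fit with the replicate number as a block passed 0.

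Among the 4 cardiac channels, Hcn4 was at 0.46 and 0.55 on 8 kPa against -0.014 and 0.014 on 126 kPa. Both soft-matrix arrays were above both stiff-matrix arrays, by 0.50 (SE 0.14), but the adjusted p was 0.341 from limma. Kcnj2 went the other way, at -0.88 and -0.61 on 8 kPa against -0.27 and 0.27 on 126 kPa (difference -0.74, SE 0.23, adjusted p = 0.388 from limma). Macrophage markers were lower on the same 8 kPa arrays, and their part in the Kcnj2 value was not tested. Kcnd2 had 0.54 and 0.019 on 8 kPa against -0.45 and 0.45, overlapping groups with a difference of 0.28 (SE 0.35) that turned to -0.16 without GHMT/126 kPa replicate 1. Cacna1c differed by only -0.11 (SE 0.14), with -0.15 and -0.063 against 0.039 and -0.039.

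**Figure D2:**
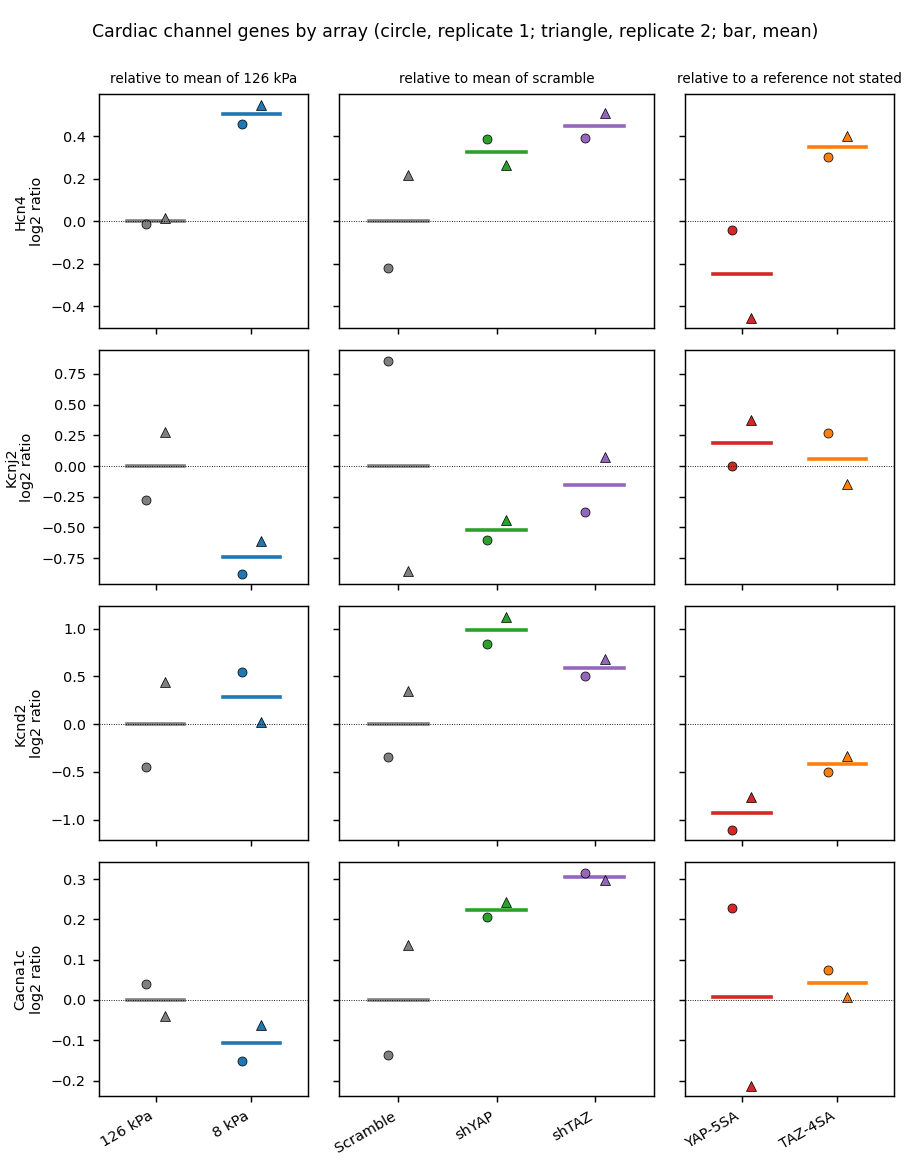
Log2 ratio of Hcn4, Kcnj2, Kcnd2 and Cacna1c (rows, each with its own scale) on every array of the stiffness, shRNA and mutant sets (columns), where circles are replicate 1, triangles replicate 2 and bars group means. Hcn4 on 8 kPa sits at 0.46 and 0.55, above both 126 kPa arrays, whereas the 2 scramble arrays of Kcnj2 span the values of both shRNA groups.

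The members furthest from 0 on 8 kPa were mostly not cardiac. Kcns2, an electrically silent modifier of Kv2 channels, was at 0.49 and 1.59 against 0.30 and -0.30, a difference of 1.04 (SE 0.41, adjusted p = 0.472 from limma), so that the 2 soft-matrix arrays differed by more than the groups did. Kcnb2, the Kv2 pore subunit such modifiers join, was at 0.85 and 0.87 against -0.19 and 0.19 (difference 0.86, SE 0.18, adjusted p = 0.242 from limma), a far tighter pair. Kcnip1, a calcium-binding partner of Kv4 channels, was at 0.87 and 0.86 against 0.17 and -0.17 (difference 0.87, SE 0.17). Kcnj1, the inward rectifier of kidney tubules, differed by 0.81 (SE 0.14), and Cacnb1, the beta subunit of skeletal muscle calcium channels, by 0.71 (SE 0.15). For each of these 3, both 8 kPa arrays were above both 126 kPa arrays.

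At the lower end, Kcne4, an auxiliary subunit that restrains Kcnq1 channels, was at -0.64 and -1.56 on 8 kPa against -0.15 and 0.15 (difference -1.10, SE 0.33, adjusted p = 0.369 from limma). Cacna1g, the T-type calcium channel that takes part in sinoatrial pacing, was at -1.02 and -1.10 against 0.14 and -0.14 (difference -1.06, SE 0.16, adjusted p = 0.149 from limma). The Cacna1g arrays lay close together, those of Kcne4 did not. Cacng7, a gamma subunit better known for trafficking glutamate receptors, differed by -0.65 (SE 0.14), and Kcnu1, a sperm potassium channel, by -0.62 (SE 0.27). At least 2-fold with arrays that did not overlap were 1 channel gene as higher, Kcns2 (0.315% of all features), and 2 as lower, Kcne4 and Cacna1g (0.815% of all features). Without GHMT/8 kPa replicate 2, Kcns2 and Kcne4 left this list and Cacna1g alone remained.

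By family on 8 kPa, where 55.7% of all features were higher, K2P channels were most often higher, 11 of 14 at a median of 0.070. No member of theirs reached an unadjusted p under 0.05. The inward rectifiers lay on both sides of 0, from -0.74 to 0.81. At an unadjusted p under 0.05, 3 of 15 were higher (5.95% of all features) and 3 lower (4.69%). Calcium channel pore subunits had the lowest family median, -0.15, with 6 of 10 lower. Of 24 genes with a known part in the cardiac action potential or pacing, the 4 cardiac channels included, 16 were higher (55.7% of all features), at a median of 0.10.

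**Figure D3:**
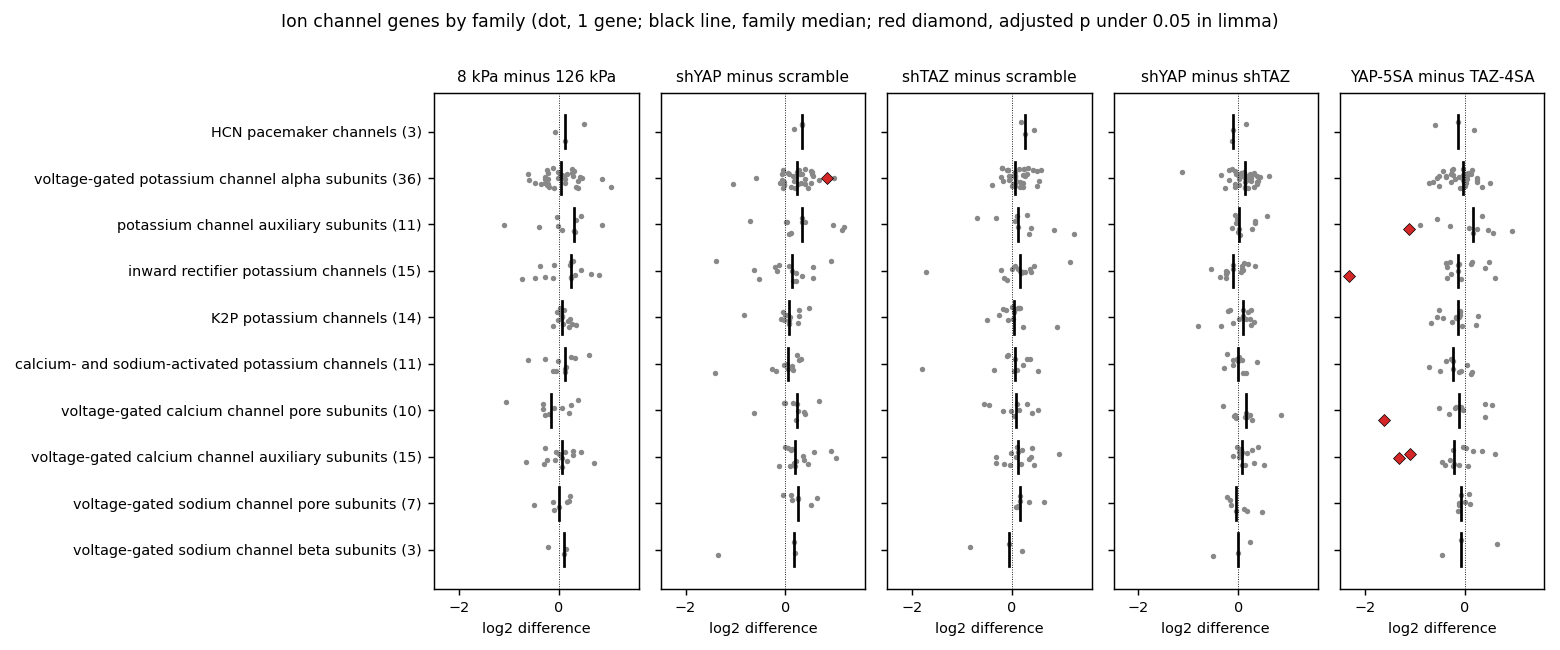
Log2 difference of each of the 125 ion channel genes in the 5 comparisons (panels), by family (rows, with the number of genes in brackets), where a black line is the family median and a red diamond a gene with an adjusted p under 0.05 in limma. Of all dots, 1 is a diamond in the shYAP panel (Kcng1) and 5 are in the YAP-5SA minus TAZ-4SA panel, the latter all to the left of 0.

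With shYAP on 126 kPa, 91 of the 125 channel genes (72.8%) were higher than with scramble, where 58.5% of all features were. Their median difference was 0.17 against 0.050 over all features, and 0.12 against 0.0034 once each array was centred on its median. By limma 1 passed as higher (0.321% of all features) and 0 as lower (0.212% of all features). At an unadjusted p under 0.05, 32 were higher, 25.6% of the 125 against 11.4% of all features, and 6 were lower, 4.8% against 7.39% of all features. The gene that passed was Kcng1, a silent subunit that modifies Kv2 channels, though not with the replicate number as a block. It was at 0.84 on both shYAP arrays against 0.031 and -0.031 with scramble, a rise of 0.84 on the log2 scale (SE 0.10, 1.79-fold, adjusted p = 0.0393 from limma). Its difference stayed between 0.80 and 0.87 in every setting tried, but its adjusted p was 0.057 without scramble replicate 1, 0.286 and 0.257 without shYAP replicates 1 and 2, and 0.134 when the 2 groups were fitted alone, all from limma.

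Several genes that are part of cardiac repolarisation were higher with shYAP without passing. Kcnip2, the partner of Kv4 channels that the cardiac transient outward current depends on, was at 1.13 and 1.21 against -0.099 and 0.099 (difference 1.17, SE 0.22, 2.25-fold, adjusted p = 0.0888 from limma). Kcnd2, a pore subunit of that current, was at 0.84 and 1.12 against -0.35 and 0.35 (difference 0.98, SE 0.24, adjusted p = 0.13 from limma). Every shYAP array was thus above every scramble array for both the pore and its partner. Hcn4 was at 0.39 and 0.27 against -0.22 and 0.22 (difference 0.33, SE 0.16) and Cacna1c at 0.21 and 0.24 against -0.14 and 0.14 (difference 0.22, SE 0.12), again without overlap and with adjusted p of 0.33 and 0.371 from limma.

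Kcnj2 could not be read in this set, because its scramble arrays were at 0.86 and -0.86 and the shYAP arrays, at -0.60 and -0.44, lay between them. Its difference was -0.52 (SE 0.51) in the full fit, 0.34 without scramble replicate 1 and -1.38 without scramble replicate 2. Of the 20 other genes of the cardiac action potential or pacing, 19 were higher with shYAP (58.5% of all features), at a median of 0.23. At an unadjusted p under 0.05, 6 of them were higher (11.4% of all features).

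Auxiliary subunits were common among the genes with the largest positive differences. Kcne4 was at 1.01 and 1.26 with shYAP against -0.32 and 0.32 (difference 1.14, SE 0.26), and Cacnb4, a beta subunit best known from brain calcium channels, at 1.05 and 0.97 against -0.35 and 0.35 (difference 1.01, SE 0.23). Kcnab1, a cytoplasmic beta subunit of Kv1 channels, was at 0.95 and 0.96 against -0.28 and 0.28 (difference 0.96, SE 0.18). In all, 10 of 11 potassium channel auxiliary subunits were higher, 6 of them at an unadjusted p under 0.05, and 13 of 15 calcium channel auxiliary subunits were, also 6 at that level, where 58.5% of all features were higher and 11.4% higher at that level. The sodium channel pore subunit Scn7a, which senses extracellular sodium, differed by 0.63 (SE 0.12), with 6 of 7 pore subunits higher, and the 3 HCN genes were all higher, Hcn3 by 0.34 (SE 0.15).

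Fewer genes were lower with shYAP. Kcnn4, the calcium-activated potassium channel found in proliferating fibroblasts and in immune cells, was at -1.15 and -1.68 against 0.11 and -0.11 (difference -1.41, SE 0.22, 2.66-fold, adjusted p = 0.0669 from limma). Scn3b, a sodium channel beta subunit, was at -1.94 and -0.77 against -0.047 and 0.047 (difference -1.35, SE 0.36), and Kcna6, a Kv1 pore subunit, at -0.89 and -1.21 against -0.32 and 0.32 (difference -1.05, SE 0.24). In all 3 the shYAP arrays lay below both scramble arrays. Kcnj10, the inward rectifier of glia, was at -1.91 and -0.87 against 0.93 and -0.93, so its groups overlapped (difference -1.39, SE 0.62), as did those of Kcnk6, a K2P channel of lysosomes and macrophages (difference -0.84, SE 0.40).

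At least 2-fold with arrays that did not overlap were 3 channel genes as higher, Kcnip2, Kcne4 and Cacnb4 (0.524% of all features), and 3 as lower, Kcnn4, Scn3b and Kcna6 (1.78% of all features). Scramble replicate 2 decided much of the count of calls. Without it 14 genes were at least 2-fold different, 7 in each direction (1.12% of all features higher and 3.17% lower), and calls rose over all features too, to 3.76% as higher and 5% as lower. Of the channel genes 13 then passed limma as higher, among them Kcnd2, Kcnip2, Kcne4, Cacnb4 and Kcnab1, and 6 as lower, Kcnn4, Kcnj10, Kcnj2, Kcnk6, Kcnab2 and Cacna1a, whereas without scramble replicate 1, without shYAP replicate 1 or without shYAP replicate 2, 0 passed limma. Of 6 channel genes known from macrophages and lymphocytes, 4 were lower and 2 higher with shYAP (58.5% of all features were higher), at a median of -0.39. At an unadjusted p under 0.05, 2 were lower (7.39% of all features). Macrophage markers were lower on the same arrays, and their part in these values was not tested. Between the scramble arrays, where those markers differed by a median of 2.29, Kcnn4 differed by 0.23, Kcnk6 by 1.21 and Kcnj10 by 1.86.

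**Figure D4:**
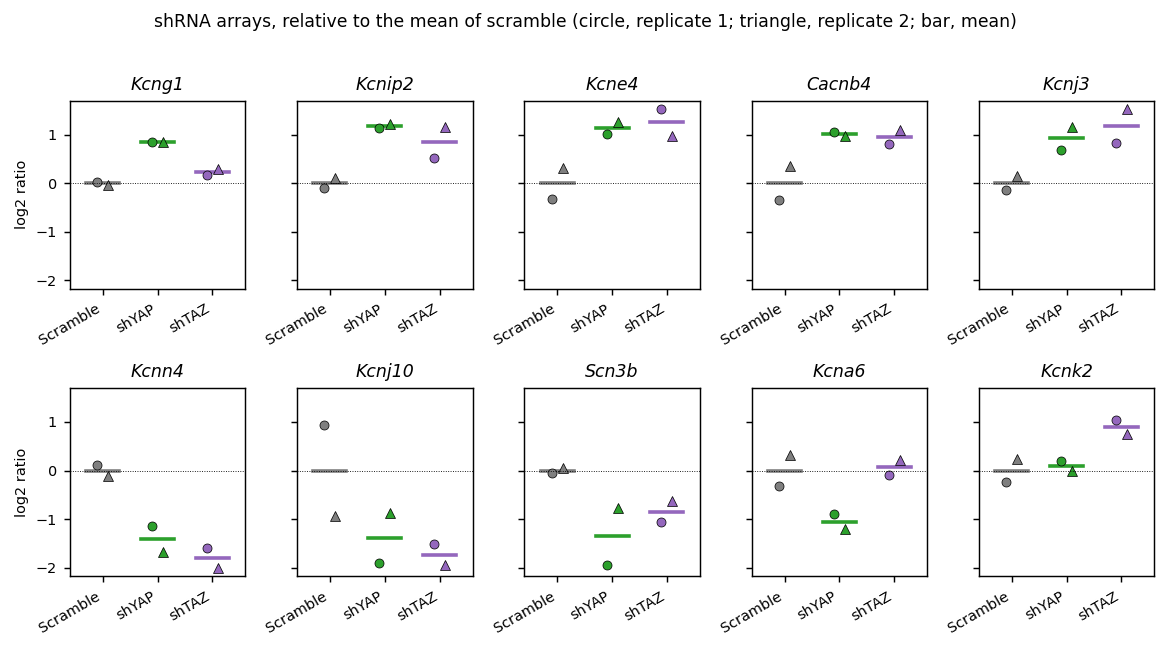
Log2 ratio, relative to the mean of scramble, of 10 ion channel genes on the 6 arrays of the shRNA set (circle, replicate 1; triangle, replicate 2; bar, group mean). Kcng1, Kcnip2, Kcne4, Cacnb4 and Kcnj3 are above scramble on every shYAP and shTAZ array, Kcnn4 and Scn3b are below it on every one, Kcnj10 has scramble arrays at 0.93 and -0.93, and Kcna6 is low with shYAP alone.

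With shTAZ, whose comparison shares the scramble arrays with that of shYAP and in which depletion of Wwtr1 itself was not resolved, 88 of the 125 genes were higher (70.4%, against 59.0% of all features) at a median of 0.11 against 0.043. By limma 0 of the 125 passed, as did 0% of all features in either direction. At an unadjusted p under 0.05, 27 were higher, 21.6% against 8.68% of all features, and 4 lower, 3.2% against 5.71% of all features. The fit to all 14 arrays passed 3, Kcnj3 and Cacnb4 as higher (0.52% of all features in that fit) and Kcnn4 as lower (1.25%), the fit to the 2 groups alone 0, and that with the replicate block 0.

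Kcnn4 was again the lowest member, at -1.59 and -2.0 with shTAZ (difference -1.80, SE 0.22, 3.48-fold, adjusted p = 0.0778 from limma). Kcnj10 followed at -1.50 and -1.95, below both widely spread scramble arrays (difference -1.73, SE 0.62, adjusted p = 0.299 from limma). Scn3b was at -1.07 and -0.63 (difference -0.85, SE 0.36) and the Kv1 beta subunit Kcnab2, which is abundant in leukocytes, at -0.70 and -0.68 (difference -0.69, SE 0.24). Of the 6 channel genes known from macrophages and lymphocytes 5 were lower and 1 higher (59.0% of all features were higher), at a median of -0.35. At an unadjusted p under 0.05, 2 were lower (5.71% of all features). The macrophage markers were at their lowest of the whole set on these arrays. Their part in these values was not tested.

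The highest members with shTAZ were Kcne4 at 1.53 and 0.98 (difference 1.25, SE 0.26) and Kcnj3 at 0.82 and 1.52 (difference 1.17, SE 0.27). Kcnj3 encodes a subunit of the atrial channel that acetylcholine opens. Cacnb4 was at 0.81 and 1.09 (difference 0.95, SE 0.23), Kcnk2, a K2P channel opened by membrane stretch, at 1.03 and 0.76 (difference 0.90, SE 0.19) and Kcnip2 at 0.51 and 1.17 (difference 0.84, SE 0.22). All 10 of these arrays were above both scramble arrays of their gene, which can follow from choosing the largest differences. The adjusted p ran from 0.142 to 0.189 in limma. Scn2a, a sodium channel pore subunit of neurons, differed by 0.65 (SE 0.12), and all 7 sodium channel pore subunits were higher.

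At least 2-fold with arrays that did not overlap were Kcne4 and Kcnj3 as higher (2 genes, 0.258% of all features) and Kcnn4 and Kcnj10 as lower (2 genes, 1.92% of all features). Without scramble replicate 2, 4 genes were at least 2-fold higher (0.687% of all features) and 7 lower (3.08%). In that fit, in which 2.92% of all features passed as higher and 4.46% as lower, 17 channel genes passed limma, 11 higher and 6 lower, Hcn4, Kcnd2, Kcne4, Cacnb4, Kcnk2 and Scn2a among the former and Kcnn4, Kcnj10, Kcnj2, Kcnab2, Cacna1a and Cacna1d the latter. Without scramble replicate 1, 0 passed limma and 2 were 2-fold different, Kcnj3 and Kcnn4.

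The cardiac channels with shTAZ were Kcnd2 at 0.51 and 0.68 (difference 0.59, SE 0.24), Hcn4 at 0.39 and 0.51 (difference 0.45, SE 0.16) and Cacna1c at 0.32 and 0.30 (difference 0.31, SE 0.12). All 3 were above both scramble arrays, a description of 2 arrays against 2, but the adjusted p ran from 0.3 to 0.338 in limma. Kcnj2, at -0.37 and 0.073, lay between its scramble arrays (difference -0.15, SE 0.51), and its difference was 0.71 without scramble replicate 1, -1.01 without scramble replicate 2 and 0.073 without shTAZ replicate 1. Of the 20 other cardiac action potential or pacing genes, 17 were higher (59.0% of all features) at a median of 0.21. At an unadjusted p under 0.05, 7 of them were higher (8.68% of all features).

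Whether shYAP and shTAZ differed was tested directly between the shRNA groups, where the scramble arrays enter only through the estimate of the spread. Of the 125 genes 76 were higher with shYAP, at a median of 0.066 against 0.012 over all features. By limma 0 passed, in a comparison where 0.0316% of all features passed as higher and 0.0136% as lower, and 0 passed with the replicate block, in the fit to all 14 arrays, in the fit to the 2 groups alone or without any 1 shRNA array. At an unadjusted p under 0.05, 9 were higher (3.93% of all features) and 5 lower (4.17% of all features), 7.2% and 4% of the 125.

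Kcng1 had the smallest p, at 0.84 on both shYAP arrays against 0.16 and 0.29 with shTAZ (difference 0.61, SE 0.10, adjusted p = 0.219 from limma). Cacna1d, the L-type calcium channel of the sinoatrial node, had the largest positive difference, with 0.25 and 0.55 against -0.27 and -0.64 (difference 0.85, SE 0.36). Its scramble arrays were at 0.57 and -0.57, so the shRNA arrays of both kinds lay inside or close to their range. Kcnab1 differed by 0.57 (SE 0.18), Cacnb2, the beta subunit of cardiac L-type channels, by 0.51 (SE 0.14) with 0.88 and 0.93 against 0.40 and 0.39, and Scn7a by 0.47 (SE 0.12).

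Kcna6 was the 1 gene at least 2-fold lower with shYAP (0.122% of all features), whereas 0 channel genes were 2-fold higher (0.411% of all features). It was at -0.89 and -1.21 with shYAP against -0.082 and 0.22 with shTAZ (difference -1.12, SE 0.24, adjusted p = 0.356 from limma). Without shTAZ replicate 2 it no longer met the rule, and Cacna1d met it as higher without replicate 1 of either shRNA. Kcnk2, the stretch-opened channel, was at 0.19 and -0.014 with shYAP against 1.03 and 0.76 (difference -0.81, SE 0.19), the inward rectifier Kcnj15 differed by -0.54 (SE 0.14), and Scn3b by -0.51 (SE 0.36) with overlapping arrays. None of the 4 cardiac channels had an unadjusted p under 0.05 here. Kcnd2 differed by 0.39 (SE 0.24), Hcn4 by -0.12 (SE 0.16), Cacna1c by -0.082 (SE 0.12) and Kcnj2 by -0.37 (SE 0.51), and these differences were not resolved at 2 arrays per group.

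On 8 kPa the active mutants were compared with each other, as the reference of their set is not stated and neither was tested against GHMT/8 kPa. With YAP-5SA 44 of the 125 genes were higher and 81 lower than with TAZ-4SA, at a median of -0.10 against -0.0086 over all features. By limma 0 passed as higher (0.402% of all features) and 5 as lower (0.493% of all features), which is 4% of the 125. At an unadjusted p under 0.05, 8 were higher, 6.4% against 6.55% of all features, and 23 lower, 18.4% against 7.00% of all features. The 5 that passed were also the 5 at least 2-fold lower with arrays that did not overlap (0.691% of all features), and 0 channel genes were 2-fold higher (0.669% of all features).

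Kcnj10, the glial inward rectifier, was at 0.53 and 0.63 with YAP-5SA and at 2.56 and 3.24 with TAZ-4SA, a difference of -2.32 (SE 0.23, 4.99-fold, adjusted p = 0.0168 from limma). Both TAZ-4SA arrays were thus far above both YAP-5SA arrays, and above 0. Cacna1a, the pore of neuronal P/Q-type calcium channels, was at -2.32 and -2.83 against -1.11 and -0.79 (difference -1.62, SE 0.21, 3.08-fold, adjusted p = 0.0323 from limma). Here all 4 arrays were below the reference, those of YAP-5SA the most. Cacng4, a gamma subunit that also serves glutamate receptors, was at 0.023 and -0.12 against 1.20 and 1.34 (difference -1.32, SE 0.15, adjusted p = 0.0219 from limma).

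The other 2 were also auxiliary subunits. Kcne3, a beta subunit of Kcnq1 and other Kv channels, was at -0.43 and -0.045 against 0.87 and 0.90 (difference -1.12, SE 0.17, adjusted p = 0.0469 from limma), and Cacnb4 at 0.18 and -0.076 against 1.07 and 1.22 (difference -1.09, SE 0.16, adjusted p = 0.0427 from limma). In both, YAP-5SA lay near the reference and TAZ-4SA above it. Without TAZ-4SA replicate 1 the adjusted p of Kcne3 was 0.0767 and that of Cacnb4 0.0542, and without TAZ-4SA replicate 2 they were 0.0939 and 0.112, all from limma. Kcnj10, Cacna1a and Cacng4 passed whichever array was left out, and without YAP-5SA replicate 1 the genes past limma were 13, 4 of them higher and 9 lower, while 2.1% of all features passed as higher and 1.88% as lower. The macrophage markers were at -2.20 and -0.99 on the 2 YAP-5SA arrays and at -2.09 and -2.50 on the TAZ-4SA arrays.

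**Figure D5:**
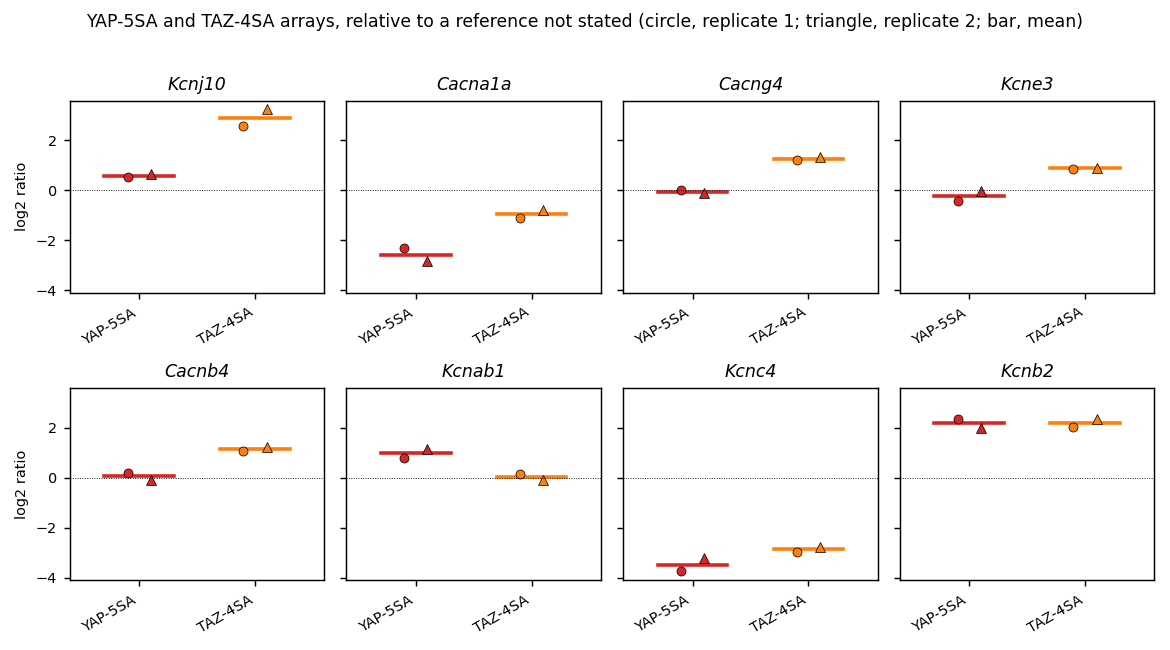
Log2 ratio, relative to a reference that is not stated, of 8 ion channel genes on the 4 arrays of the mutant set (circle, replicate 1; triangle, replicate 2; bar, group mean). Kcnj10, Cacna1a, Cacng4, Kcne3 and Cacnb4 are lower with YAP-5SA than with TAZ-4SA on every array, Kcnab1 is higher, and Kcnc4 and Kcnb2 are far from 0 on all 4.

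Within the mutant set no channel gene passed as higher with YAP-5SA, whereas the fit to all 14 arrays passed Kcnab1 (1.37% of all features passed as higher there) and added Kcnip2 to the 5 lower genes. The largest positive differences were those of Kcnab1, at 0.78 and 1.16 against 0.15 and -0.11 (difference 0.95, SE 0.19, adjusted p = 0.0875 from limma), Scn3b (0.65, SE 0.21), the inward rectifier Kcnj12 (0.61, SE 0.34, with overlapping arrays), the gamma subunit Cacng3 (0.60, SE 0.22) and the Kv1 beta subunit Kcnab3 (0.57, SE 0.15). Kcnab1, Kcnj12, Cacng3 and Scn3b were the 4 that passed without YAP-5SA replicate 1. Among the 4 cardiac channels, Hcn4 and Kcnd2 had negative differences that did not pass. Hcn4 was at -0.039 and -0.45 against 0.30 and 0.40 (difference -0.60, SE 0.18, adjusted p = 0.23 from limma) and Kcnd2 at -1.11 and -0.77 against -0.50 and -0.34 (difference -0.52, SE 0.17, adjusted p = 0.266 from limma). Cacna1c (-0.033, SE 0.18) and Kcnj2 (0.13, SE 0.20) had overlapping arrays, and the sign of each turned with 1 array left out. Of the 20 other genes of the cardiac action potential or pacing, 9 were higher and 11 lower, at a median of -0.067 (48.5% of all features were higher). An unadjusted p under 0.05 was reached by 2 of the former (6.55% of all features) and 4 of the latter (7.00%).

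By family, 12 of 14 K2P channels were lower with YAP-5SA, at a median of -0.14, and 8 of 11 calcium- or sodium-activated potassium channels, at a median of -0.22, the SK channel Kcnn2 by -0.72 (SE 0.18). Of all 125 channel genes 64.8% were lower, and of all features 48.5% were higher. At an unadjusted p under 0.05, 3 of the 14 and 2 of the 11 were lower (7.00% of all features) and 0 higher. Among potassium channel auxiliary subunits 7 of 11 were higher, at a median of 0.17, although Kcne3 of that family had one of the largest negative differences. The sodium channel pore subunits stayed closest together, from -0.13 to 0.11, and of the beta subunits Scn4b differed by -0.46 (SE 0.14).

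Relative to the unstated reference of the mutant set, 31 channel genes were above 0 and 28 below 0 on all 4 arrays (26.8% and 20.6% of all features were). Only 2 were beyond 1 with 1 sign on all 4, and they are given because of those values. Kcnc4, a fast-inactivating Kv3 channel, was at -3.74 and -3.23 with YAP-5SA and -2.96 and -2.77 with TAZ-4SA. Kcnb2 was at 2.35, 1.99, 2.03 and 2.34 in the same order. At least 1 above the reference on all 4 were 0.271% of all features, and at least 1 below it 0.917%. In the stiffness and shRNA sets, Kcnc4 was at -0.66 and -0.57 on 8 kPa, -0.55 and -0.61 with shYAP and -0.46 and -0.33 with shTAZ, and Kcnb2 at 0.85 and 0.87, 0.66 and 0.70, and 0.50 and 0.51, each relative to the reference of its own set. Kcnip2 was at -1.72 and -1.50 with YAP-5SA and -0.84 and -0.60 with TAZ-4SA, and Kcnd2 was below 0 on the same 4 arrays. Both had been above scramble on all 4 arrays with shYAP or shTAZ. Kcnn4 and Scn3b, in contrast, were below 0 on all 4 mutant arrays and had also been below scramble with either shRNA. On the mutant arrays Kcnn4 lay between -1.16 and -0.71 and Scn3b between -1.05 and -0.067. No count of channel genes with either pattern was made, and the mutant reference is not stated.

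Channels work with partners outside the name pattern, and 2 further lists were followed beside them. Of 16 partners and regulators, Abcc9, the sulfonylurea receptor of cardiac and vascular ATP-sensitive potassium channels, was higher with shYAP by a log2 difference of 1.44 (SE 0.17, adjusted p = 0.0373 from limma). Its adjusted p was 0.246 without shYAP replicate 1 and 0.257 without replicate 2, again from limma. With shTAZ it differed by 0.98 (SE 0.17, adjusted p = 0.115 from limma). Cav3, the caveolin of muscle membranes, differed by 1.04 with shYAP (SE 0.23). Ank2, the ankyrin that anchors cardiac transporters and channels, was lower with YAP-5SA than with TAZ-4SA (log2 difference -1.0, SE 0.16, adjusted p = 0.0488 from limma), but its adjusted p was 0.0843 without TAZ-4SA replicate 1 and 0.151 without replicate 2. The partners were otherwise mixed, with 7 of 16 higher on 8 kPa (55.7% of all features), 10 with shYAP (58.5%) and 11 with shTAZ (59.0%). With shYAP 4 were higher (11.4% of all features) and 3 lower (7.39%) at an unadjusted p under 0.05. Between the mutants 5 were higher and 11 lower with YAP-5SA (48.5% of all features were higher).

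Of 15 genes of excitation-contraction coupling and calcium handling, 13 were higher with shYAP (58.5% of all features), at a median of 0.33, and 2 of them passed limma (0.321% of all features). At an unadjusted p under 0.05, 8 were higher (11.4% of all features) and 2 lower (7.39%), the latter being the calcium store protein Casq2 (-0.45, SE 0.14) and the kinase Camk2d (-0.37, SE 0.14). Pln, which restrains the calcium pump of the sarcoplasmic reticulum, rose by a log2 difference of 2.83 (SE 0.29, adjusted p = 0.0335 from limma), and Slc8a1, the sodium-calcium exchanger, by 0.90 (SE 0.10, adjusted p = 0.0361 from limma). Neither passed limma when either shYAP array was left out, where the adjusted p ran from 0.245 to 0.283, and Slc8a1 also missed without scramble replicate 1 (adjusted p = 0.057). With shTAZ 13 were higher (59.0% of all features) at a median of 0.35 and 0 passed, while 9 were higher at an unadjusted p under 0.05 (8.68% of all features). Between the mutants 12 of 15 were lower and 3 higher with YAP-5SA (48.5% of all features were higher), and Pln (-1.63, SE 0.18, adjusted p = 0.0219 from limma) and Trdn, which anchors the calcium release complex (-1.32, SE 0.20, adjusted p = 0.0454 from limma), passed as lower (0.493% of all features). Trdn had an adjusted p of 0.0852 without TAZ-4SA replicate 2. On 8 kPa against 126 kPa 8 of 15 were higher (55.7% of all features), at a median of 0.033. There 0 passed limma (0% of all features as higher and 0.0721% as lower). At an unadjusted p under 0.05, 2 were lower (4.69% of all features).

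Markers of cell types moved in the same arrays. Cardiomyocyte markers, 11 measured, had medians of 1.07 and 1.0 with shYAP, 0.75 and 0.68 with shTAZ, -3.27 on both YAP-5SA arrays and -1.18 and -1.23 with TAZ-4SA, but -0.12 and -0.097 on 8 kPa. Medians of 10 neuron and Schwann cell markers lay between -0.17 and 0.21 and those of 6 endothelial markers between -0.084 and 0.49 on all 14 arrays. Those of 9 fibroblast markers ran from -0.17 to 0.53 and of 6 smooth muscle markers from -0.48 to 0.21. Single markers moved more than these medians. On 8 kPa all 6 smooth muscle markers were lower, from -1.09 to -0.12, while 55.7% of all features were higher. At an unadjusted p under 0.05, 3 of them were lower (4.69% of all features). The 9 fibroblast markers ran from -1.67 to 0.53 there, 3 higher and 6 lower. At that level 2 fibroblast markers were higher (5.95% of all features) and 3 lower, and 0 of either list passed limma. Of the 11 cardiomyocyte markers, 10 were higher under either shRNA (58.5% of all features with shYAP and 59.0% with shTAZ). Under shYAP 6 passed limma as higher (0.321% of all features), and under shTAZ 0 did (0%). Between the mutants all 11 were lower with YAP-5SA (48.5% of all features were higher). There 10 had an unadjusted p under 0.05 (7.00% of all features) and 7 passed limma (0.493%). Nppa went the other way from the other 10 under both shRNAs. Its log2 difference was -1.91 (SE 0.26) under shYAP, where it passed limma as lower. Under shTAZ it was -1.01 (SE 0.26) and did not pass. Pln and Ryr2 belong to these 11 and also to the 15 excitation-contraction genes above. On 8 kPa 6 neuron and Schwann cell markers were higher, Stmn2 by 0.85 (SE 0.15), and 4 lower. With shYAP 3 endothelial markers were higher, Tek by 1.41 (SE 0.24), and 3 lower. Neither Stmn2 nor Tek passed limma there. How far the share of cardiomyocyte-like cells or of macrophages carried the channel values was not tested.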

How the data were processed

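RNA of mouse embryonic fibroblasts was hybridised by the study to 14 Clariom S Mouse arrays, 2 for each of 7 groups. The deposited values are ratios, taken as log2, that the authors made with Affymetrix Expression Console (version 1.4, per the labels) within 3 sets of arrays, and the normalization, background filter and genome build are not given in the sources used here. Features were named through GEO's platform annotation, in which 19572 of 22206 features carry 1 gene symbol and 2634 carry none. Features lacking a value on any array of their set were dropped, which left 22206 (stiffness), 22122 (shRNA) and 22127 (mutant) for testing, with no filter on dim features because no signal was used.

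Each set was fitted by limma 3.58.1 (R 4.3.3) with its groups as terms, and p-values were adjusted by Benjamini-Hochberg over all features of the set. The test was checked on simulated data. Tables and plots were made with Python 3.11.15. Genes named are the 4 cardiac channels, those past limma, the 5 highest and 5 lowest of each comparison, those at least 2-fold different without overlap, and up to 2 per family and up to 4 per list by largest difference; Kcnc4 was named after its values were seen. The channel genes and all lists were chosen with earlier results of these data known. Promoters are from RefSeq (GRCm38.p6). Alternatives were median-centred arrays, leaving out single arrays, the replicate number as a block, 1 fit to all 14 arrays, the 2 groups alone and a 1.5-fold limit. The number of arrays limits the precision, 0 columns of per-sample values were left unused, and some genes are not analysed here.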

Additional observations from a re-analysis of the deposited data

How the results depend on the processing

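With 2 arrays per group and ratios without signal levels, small differences and dim genes could not be resolved. Same-numbered replicates deviated together weakly or not at all (r over features of 0.050 in the stiffness set, -0.023 to 0.20 in the shRNA set and 0.15 between the mutants), so the numbers were not taken to pair the samples, although all 17 macrophage markers were higher on replicate 1 of both scramble and shYAP. With the replicate number as a block, channel genes past limma were 0 for stiffness, 1 for shYAP (Kcnn4 as lower in place of Kcng1), 0 for shTAZ, 0 between the shRNAs and 6 between the mutants (Kcnip2 added). Of all features, 0.0994% passed as higher and 0.0407% as lower in that fit for shYAP. Between the mutants 0.615% passed as higher and 0.714% as lower.

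In 1 fit to all 14 arrays, 4 passed for stiffness, 8 for shYAP and 3 for shTAZ, against 0, 1 and 0 within the sets. For shYAP 1.13% of all features passed as higher in that fit and 1.44% as lower. When the 2 groups were fitted alone, 0 channel genes passed for shYAP. Leaving out 1 array gave 0 to 19 genes for shYAP, 0 to 17 for shTAZ and 3 to 13 between the mutants. The genes at least 2-fold different were then 1 to 4 for stiffness, 4 to 14 for shYAP, 2 to 11 for shTAZ and 0 to 2 between the shRNAs. At 1.5-fold they were 14 for stiffness, 17 for shYAP, 11 for shTAZ, 4 between the shRNAs and 14 between the mutants. No share of all features is given at that limit, so these counts are not read as a result. Centring each array moved the median of the channel genes to 0.035 for stiffness, 0.12 for shYAP, 0.071 for shTAZ and -0.088 between the mutants, and all kept their sign. Leaving out 1 array gave medians of 0.031 to 0.097 for stiffness, 0.030 to 0.082 between the shRNAs and -0.14 to -0.078 between the mutants.

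Single genes turned sign only when 1 array was left out. These were Kcnd2 for stiffness (-0.16 to 0.73 over the arrays left out, the lowest without GHMT/126 kPa replicate 1), Kcnj2 with shYAP (-1.38 to 0.34, the highest without scramble replicate 1) and with shTAZ (-1.01 to 0.71, the highest without scramble replicate 1, and 0.073 without shTAZ replicate 1), Scn3b between the shRNAs (-1.09 to 0.079, the highest without shYAP replicate 1), and between the mutants Cacna1c (-0.25 to 0.19, the highest without YAP-5SA replicate 2) and Kcnj2 (-0.078 to 0.33, below 0 without TAZ-4SA replicate 2 and, at -0.062, without YAP-5SA replicate 2). The cause was not tested in any of these. Of 715 values of named genes under an alternative, 634 kept their sign and side of the threshold, 50 newly passed, 23 no longer passed and 8 turned sign.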
